A study of Mus musculus with 6 samples.

Results

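A panel of 38 genes for the synaptic vesicle and the release of neurotransmitter was examined in whole mouse brainstem. The genes were chosen by name, as the rows of the deposited expression table whose gene symbol was on the panel, and all 38 of 38 were found among 18058 genes. Total RNA came from brainstems, snap-frozen whole, of mice at 1 month of age, from 3 animals of wild type C57BL/6J (WT) and 3 animals of Rag1-/- genotype, at 1 library per animal. The Rag1-/- mice carry a mutation of Rag1 in every cell of the body and lack mature T and B cells, which need the Rag1 recombinase to assemble antigen receptors. The labels name no other allele or agent. The comparison asks whether these genes differ between brainstems with and without the Rag1 mutation.

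Neurons store transmitter in small vesicles and release it when an action potential lets calcium into the nerve terminal. Vesicular transporters fill the vesicle, the active zone scaffolds and priming factors hold it at the membrane, and the SNARE proteins fuse it there when a synaptotagmin binds calcium. The membrane is then taken back by endocytosis, and most of these proteins exist as several paralogs that different brain regions use in different proportions.

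The values are in CPM, gene counts scaled to the size of each library. Depth, estimated from the steps among low values, was 34800000 to 46400000 reads in WT and 31600000 to 35100000 in the libraries labelled Rag1-/-. The weakest member, Slc17a8, rested on 69 to 371 estimated reads per library. Rag1 itself was at 0.246 ± 0.137 CPM (SD, n = 3) in WT and at 3.18 ± 0.750 CPM (SD, n = 3) in libraries labelled Rag1-/- (adjusted p = 0.0120 by limma-trend). The targeted transcript was thus higher in the libraries labelled Rag1-/-, and a total over the gene cannot show whether reads came from the mutated stretch, so those libraries are named by their label. Xist, the transcript of the silenced X chromosome, was at 172 and 177 CPM in WT 1 and WT 2 and at 0.462 to 2.93 CPM in the other 4 libraries. It marks female tissue, so every difference between the groups given here is in part also one of sex, and the 2 cannot be fully told apart with no Xist-rich library labelled Rag1-/-. Among the members, Syn1 and Syp lie on the X chromosome. Library WT 3 also stood apart in pituitary hormone genes, with Gh at 381 CPM against 0.289 to 43.8 CPM in the other libraries. The Hox genes, which mark the hindbrain and spinal cord, were detected in every library but unevenly, as given with the members they moved with.

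Levels are compared between genes only per length, as CPM per kilobase of the longest annotated transcript. On this scale the mean over 6 libraries ran from 0.871 CPM/kb for Unc13b to 412 CPM/kb for Cplx1. Cplx1, a complexin that clamps the assembled SNARE complex, was followed by Syp (387 CPM/kb), a membrane protein of the vesicle, by Rab3a (369 CPM/kb), a small GTPase on the vesicle, and by Snap25 (339 CPM/kb), a SNARE of the plasma membrane. Vamp2, the SNARE of the vesicle, stood at 262 CPM/kb. The order at the top depended on the length used: with the longest coding transcript in place of the longest transcript, Snap25 came first at 781 CPM/kb ahead of Syp and Cplx1. Besides Unc13b the least abundant members were Slc17a8 (1.18 CPM/kb) and Sv2c (4.14 CPM/kb).

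**Figure D1:**
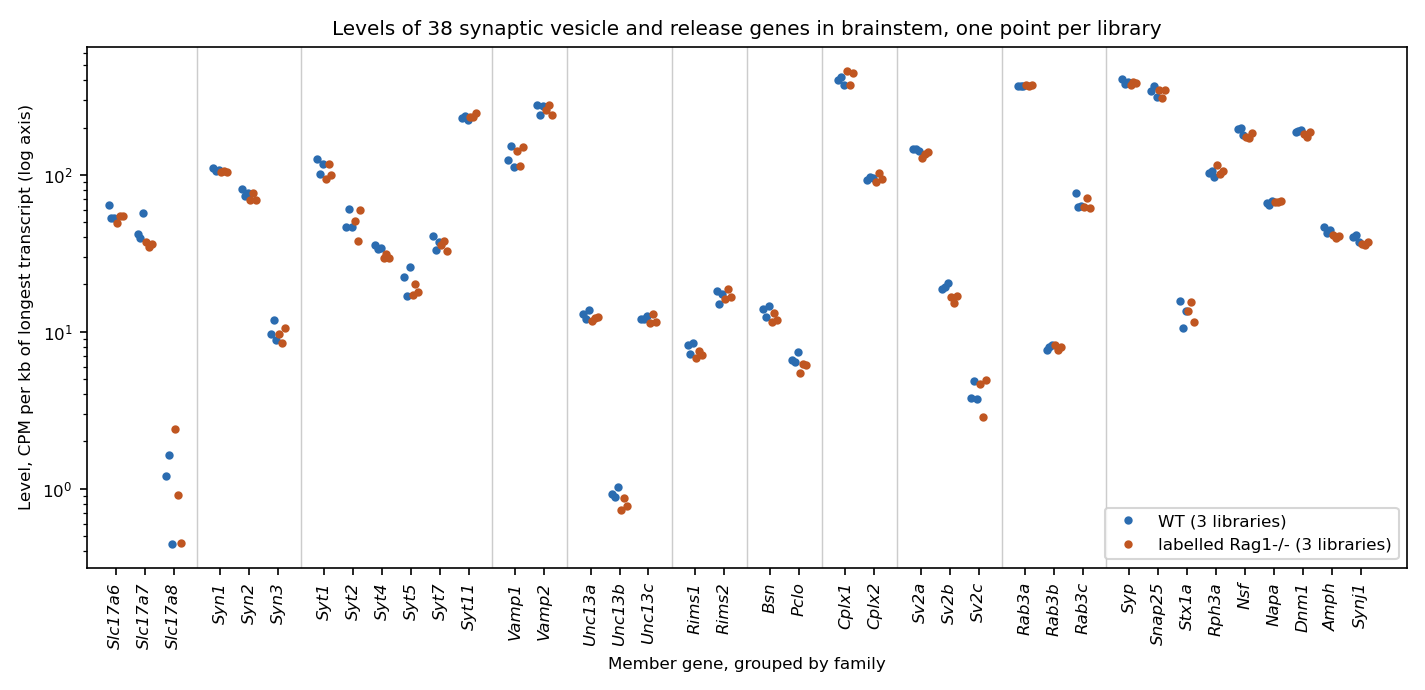
Level of each of the 38 genes in CPM per kb of longest transcript (log axis), with 1 point per library, WT in blue and labelled Rag1-/- in orange, and vertical lines between families. Cplx1, Syp, Rab3a and Snap25 lie highest, Unc13b and Slc17a8 lowest, and the points of both groups lie close together for nearly all genes.

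Shares within a family, per length, are shares of the panel members alone. Other paralogs that were measured, namely 8 synaptotagmins, Vamp3, Vamp4, Rims3, Rims4, Cplx3, Cplx4 and Rab3d, are not in them.

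Among the vesicular glutamate transporters, Slc17a6 (VGLUT2), the form of subcortical neurons, took the largest share of the family per length, 56.7% as the mean of 6 libraries. Its level was 264, 220 and 221 CPM in WT 1, WT 2 and WT 3, and 205, 224 and 226 CPM in libraries labelled Rag1-/- 1, 2 and 3. The groups overlapped. This lead depended on the length used, since with the shortest coding transcript the shares were 44.0% for Slc17a6 and 53.7% for Slc17a7. Slc17a7 (VGLUT1), the form of cortical and cerebellar granule neurons, made up 38.5% to 41.9% of the family in 5 libraries and 51.4% in WT 3, where it exceeded Slc17a6 at 48.2%. Slc17a8 (VGLUT3), found in serotonergic and other scattered neurons, held 0.402% to 2.70%.

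The synaptotagmins, which sense calcium or regulate vesicle traffic, were led per length by Syt11, a form that does not bind calcium, with 48.6% of the 6 on the panel. Syt11 was at 1156, 1195 and 1128 CPM in WT and at 1176, 1166 and 1240 CPM in libraries labelled Rag1-/-, and the groups overlapped. Of the fast calcium sensors, Syt1 held 22.6% and Syt2, the sensor of many hindbrain and spinal terminals, 10.4%. Syt7, a slower sensor of high calcium affinity, held 7.49%, Syt4 6.70% and Syt5 4.13%. With the shortest coding transcript, which for Syt2 has 383 bases, Syt11 and Syt2 were nearly equal at 40.6% and 40.7%. Syt1 was then at 5.08%, below Syt2.

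Syn1 made up 55.8% of the synapsins, the phosphoproteins that tether vesicles in the reserve pool, with Syn2 at 39.0% and Syn3 at 5.18%. Cplx1 made up 81.1% of Cplx1 and Cplx2 together, and it lay at 882, 918 and 820 CPM in WT and at 1008, 812 and 969 CPM in libraries labelled Rag1-/-. Its lowest and its highest value were both in libraries labelled Rag1-/-. Sv2a, the vesicle glycoprotein that binds levetiracetam, made up 86.4% of the SV2 family, with Sv2b at 11.04% and Sv2c at 2.56%.

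Rab3a made up 83.3% of the RAB3 GTPases on the panel, Rab3c 14.9% and Rab3b 1.80%. These shares depended on the length used: with no division by length Rab3a was at 49.7% and Rab3c at 48.0%. Rab3a was at 570, 573 and 574 CPM in WT and at 584, 569 and 580 CPM in libraries labelled Rag1-/-, the most even member, with an SD of log2 level of 0.01 over 6 libraries. Of the sum of the vesicle SNAREs Vamp1 and Vamp2, Vamp2 made up 66.4% and Vamp1 33.6%. Vamp2 was at 617, 531 and 603 CPM in WT and at 574, 612 and 534 CPM in libraries labelled Rag1-/-, and the groups overlapped. Which of the 2 VAMPs leads was not settled by these data, since the share of Vamp2 was 51.2% with the longest coding transcript and 22.4% with the shortest.

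In the active zone, Bsn (bassoon) made up 67.0% and Pclo (piccolo) 33.0% of the giant scaffolds. Rims2 held 69.2% of Rims1 and Rims2 together, which tie vesicles to calcium channels, and was at 87.1, 71.8 and 83.6 CPM in WT and at 77.1, 90.4 and 79.4 CPM in libraries labelled Rag1-/-, with overlapping groups. The short paralog Rims3, not in this share, had means of 318 CPM over the 3 WT libraries and 286 CPM over the 3 labelled Rag1-/-. Unc13a and Unc13c, priming factors of the Munc13 family, were nearly equal at 49.1% and 47.5%, and Unc13b held 3.42%. With the shortest coding transcript the shares of Unc13a and Unc13c were 82.2% and 7.41%. Unc13a was at 132, 124 and 141 CPM in WT and at 120, 125 and 127 CPM in libraries labelled Rag1-/-, with overlapping groups. Unc13c is a form known from cerebellar granule cells.

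No member passed the limma-trend test of the groups. Of the 38 genes, 0 had an adjusted p under 0.05 by limma-trend across 16762 genes, where 0.0477% of all genes tested were called, and limma without trend also called 0. In a fit with a term for Xist the genotype difference rests on WT 3 as the only WT library. Its calls are not used, as described with Slc17a7. At an unadjusted p of at most 0.05 there were 9 members (23.7%) against 11.6% of all genes tested, and all 9 were lower in the libraries labelled Rag1-/-, a direction in which 9.29% of all genes tested met this p (2.27% met it in the higher direction, where the panel had 0). The groups did not overlap for 9 members, again all lower, where 14.4% of all genes tested did so in this direction, and for 0 members in the other, where the background was 3.98%. A lower mean was found for 27 of 38 members, against 67.7% of all genes tested, and the median log2 fold change was -0.06 against -0.05 for all genes tested. The members' median was -0.02 with rescaling by the median of ratios, -0.03 with a term for Xist, -0.09 without WT 3 and -0.09 without the library labelled Rag1-/- 3. With rescaling by the median of ratios, 22 members had a lower mean and 4 had an unadjusted p of at most 0.05, all lower, and without trend 4 members were at this p. Of all genes tested, 9.09% met this p under that scaling and 4.36% met it in the lower direction, so the excess of lower genes in the background depended on the scaling. The count of 9 was 5 without WT 1, where 8.79% of all genes met this p, and 4 without the library labelled Rag1-/- 1, where 6.63% did.

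**Figure D2:**
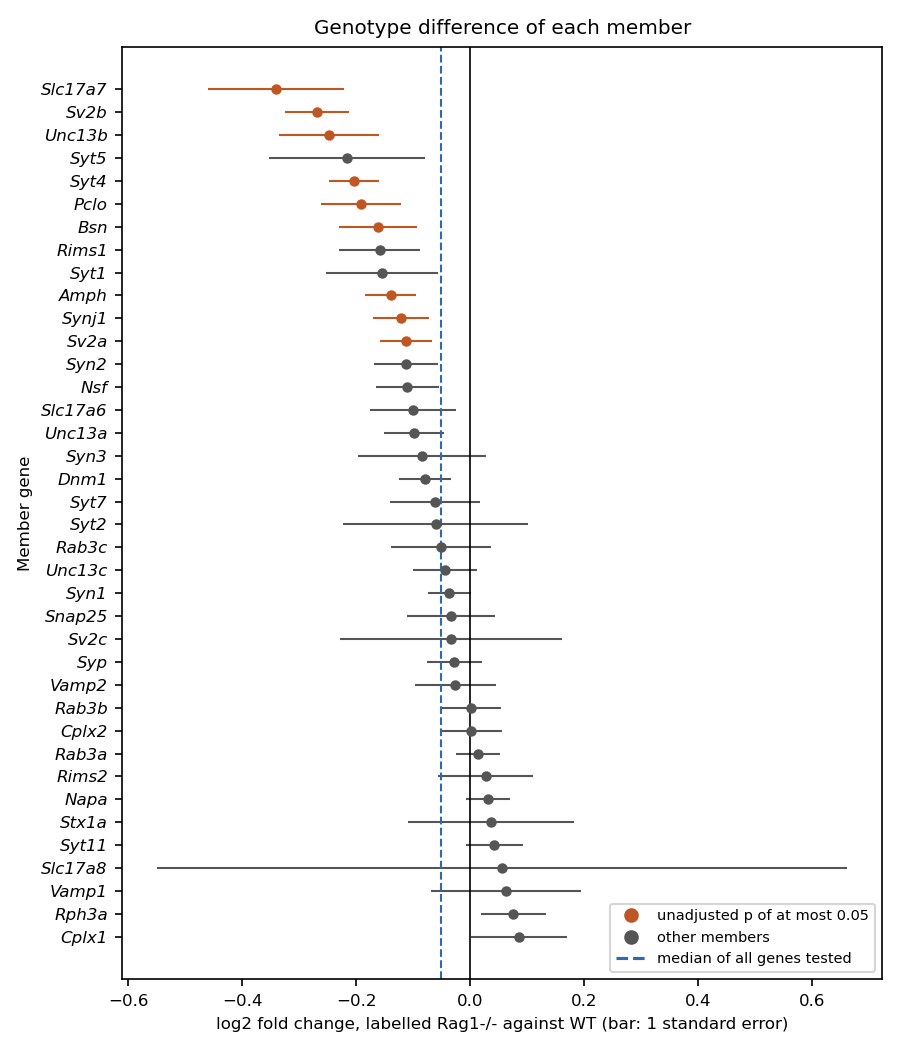
Log2 fold change of each of the 38 genes, labelled Rag1-/- against WT, with bars of 1 standard error (n = 3 per group) and orange for an unadjusted p of at most 0.05 by limma-trend. The differences run from -0.34 (Slc17a7) to 0.09 (Cplx1), the 9 orange genes all lie left of 0, and the dashed line marks the median of all genes tested at -0.05.

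Of the vesicle proteins, Sv2b had the smallest p of the panel. It was at 103, 107 and 113 CPM in WT and at 91.7, 83.8 and 93.1 CPM in libraries labelled Rag1-/-. All 3 of the latter lay below every WT library, at a log2 fold change of -0.27 (standard error 0.06, unadjusted p = 0.00106, adjusted p = 0.251 by limma-trend). Its paralog Sv2a was at 636, 631 and 617 CPM in WT and at 556, 585 and 602 CPM in libraries labelled Rag1-/-, also without overlap, at a log2 fold change of -0.11 (standard error 0.05, with adjusted p = 0.407 by limma-trend). Syn1 did not overlap either, with 358, 346 and 348 CPM in WT and 341, 344 and 342 CPM in libraries labelled Rag1-/-, but the difference was -0.04 on the log2 scale and the unadjusted p was 0.358 by limma-trend. For every gene named without overlap p was 0.1 in an exact two-sided permutation test, the smallest value that 3 against 3 libraries allow.

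Slc17a7 had the largest difference of the 38 genes. It was at 129, 122 and 175 CPM in WT and at 115, 107 and 111 CPM in libraries labelled Rag1-/-, so WT 3 stood far above the rest and the groups did not overlap. The log2 fold change was -0.34 (standard error 0.12, unadjusted p = 0.0199, adjusted p = 0.373 by limma-trend), and it was -0.18 without WT 3. Markers of the cerebellum were high in WT 3 as well: Cbln3, a granule cell gene, was at 7.74, 7.82 and 108 CPM in WT and at 6.01, 28.7 and 9.59 CPM in libraries labelled Rag1-/-. Gabra6, the granule cell GABA receptor subunit, was at 25.8 CPM and Pcp2, a Purkinje cell gene, at 36.6 CPM in WT 3. Both were also higher in the library labelled Rag1-/- 2, at 9.31 and 9.48 CPM against 1.33 to 2.68 CPM in the other 4 libraries, while Slc17a7 was lowest in that library. Over all 14 cerebellar markers, which were all detected in all libraries, the summed level was 676 to 1509 CPM in WT and 733 to 987 CPM in libraries labelled Rag1-/-, and 0 had an adjusted p under 0.05. Their part in the Slc17a7 values was not tested. When the model separated the 2 libraries that had more than 100 CPM of Xist, the Slc17a7 difference was -0.66. That difference rests on WT 3, which is then the one WT library in its class.

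Syt4, an atypical synaptotagmin found on dense-core vesicles, was at 139, 132 and 133 CPM in WT and at 114, 122 and 115 CPM in libraries labelled Rag1-/-. The groups stood apart, at a log2 fold change of -0.20 (standard error 0.04, unadjusted p = 0.00135, adjusted p = 0.265 by limma-trend). Together with Sv2b, Syt4 kept an unadjusted p of at most 0.05 in all alternatives run. The other synaptotagmins overlapped between the groups, and their log2 fold changes were -0.22 for Syt5, -0.15 for Syt1, -0.06 for Syt7 and for Syt2, and 0.04 for Syt11. With 1 library left out, Syt5 ranged from -0.38 without WT 2 to -0.08 without WT 3, and Syt1 from -0.25 without the library labelled Rag1-/- 2 to -0.08 without WT 1.

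In the active zone, Pclo was at 132, 128 and 149 CPM in WT and at 110, 126 and 123 CPM in libraries labelled Rag1-/-, without overlap (log2 fold change -0.19, standard error 0.07, adjusted p = 0.382 by limma-trend). Bsn was at 222, 199 and 233 CPM in WT and at 185, 209 and 191 CPM in libraries labelled Rag1-/-, where WT 2 lay below the second library labelled Rag1-/- (log2 fold change -0.16, adjusted p = 0.425 by limma-trend). Unc13b was at 13.7, 13.1 and 15.0 CPM in WT and at 10.9, 13.0 and 11.4 CPM in libraries labelled Rag1-/-, with WT 2 and the library labelled Rag1-/- 2 nearly equal but no overlap (log2 fold change -0.25, adjusted p = 0.373 by limma-trend). Pclo, Bsn and Unc13b all had their highest value in WT 3. Without WT 3 their log2 fold changes were -0.13, -0.11 and -0.19, and their unadjusted p by limma-trend was 0.0720, 0.134 and 0.0635.

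Of the genes of membrane retrieval, Amph (amphiphysin), which recruits dynamin to the coated pit, was at 156, 144 and 151 CPM in WT and at 139, 132 and 138 CPM in libraries labelled Rag1-/-. The groups did not overlap (log2 fold change -0.14, standard error 0.04, unadjusted p = 0.0127, adjusted p = 0.355 by limma-trend). Dnm1, the neuronal dynamin that cuts the vesicle free, was at 866, 878 and 884 CPM in WT and at 834, 799 and 856 CPM in libraries labelled Rag1-/-, without overlap, at -0.08 on the log2 scale (unadjusted p = 0.119 by limma-trend). Synj1 (synaptojanin), the lipid phosphatase that uncoats the vesicle, was at 284, 295 and 263 CPM in WT and at 256, 254 and 264 CPM in libraries labelled Rag1-/-, so the groups overlapped through WT 3 and the library labelled Rag1-/- 3 (log2 fold change -0.12, adjusted p = 0.413 by limma-trend).

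The SNARE proteins and their recycling factors showed no gene at an unadjusted p of 0.05 or less. The log2 fold changes were -0.03 for Snap25, -0.03 for Vamp2, 0.06 for Vamp1 and 0.04 for Stx1a, the plasma membrane syntaxin, each with overlapping groups. Nsf, the ATPase that takes the SNARE complex apart, was at -0.11 and its adaptor Napa at 0.03. The complexins were at 0.09 for Cplx1 and 0.00 for Cplx2, and Rph3a (rabphilin), a RAB3 effector, was at 0.08. With 1 library left out, Cplx1 ranged from 0.02 without the library labelled Rag1-/- 1 to 0.18 (unadjusted p = 0.0235 by limma-trend) without that labelled Rag1-/- 2, and Rph3a from 0.03 to 0.12 without the same libraries. Syp was at -0.03, Rims2 at 0.03 and Rims1 at -0.16, the last with overlapping groups and an unadjusted p of 0.0555 by limma-trend.

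The remaining members were Slc17a6 at -0.10, Slc17a8 at 0.06, Syn2 at -0.11, Syn3 at -0.08, Unc13a at -0.10, Unc13c at -0.04, Sv2c at -0.03, Rab3a at 0.01, Rab3b at 0.00 and Rab3c at -0.05 on the log2 scale. All of them overlapped between the groups. With 1 library left out, Slc17a6 ranged from -0.14 without WT 2 to -0.01 without WT 1, and Unc13c from -0.10 without the library labelled Rag1-/- 2 to -0.0083 without that labelled Rag1-/- 1. Unc13a ranged from -0.14 to -0.05. Of members given earlier, Syp ranged from -0.05 to -0.0016, Napa from 0.01 to 0.05 and Syt11 from 0.01 to 0.06. For Slc17a8 the standard error was 0.61, the widest of the panel.

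In whole-tissue RNA, fewer neurons and less transcript per neuron cannot be told apart. A list of 18 neuron markers had a median log2 fold change of 0.01. Of these, 2 genes (11.1%, against 11.6% of all genes tested) had an unadjusted p of 0.05 or less by limma-trend, 1 in each direction. The sum of the list was 7756 to 8273 CPM in WT and 7661 to 8375 CPM in libraries labelled Rag1-/-. Of 8 oligodendrocyte markers, all detected in all libraries, 8 were higher without overlap, against 3.98% of all genes tested. An unadjusted p of at most 0.05 by limma-trend was found for 8, all higher, against 2.27% of all genes tested. An adjusted p under 0.05 was found for 0, against 0.0477% of all genes tested. The sum of these markers was 19990 to 23188 CPM in WT and 25786 to 27096 CPM in libraries labelled Rag1-/-. CPM values share a fixed total, and the part of these markers in the lower values of the members was not tested.

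Several members varied widely between libraries of the same group. Slc17a8, Sv2c, Slc17a7 and Syt2 varied most over the 6 libraries, with SDs of log2 level of 0.96, 0.31, 0.26 and 0.26. These SDs include the difference between the groups, which was -0.34 for Slc17a7 on the log2 scale. Those of Slc17a8 and Sv2c were larger than in 99.6% and 94.7% of genes whose mean was 1 CPM or more. Syt1, Syt2, Vamp1, Sv2c and Slc17a8 were singled out for this description after their values were seen.

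**Figure D3:**
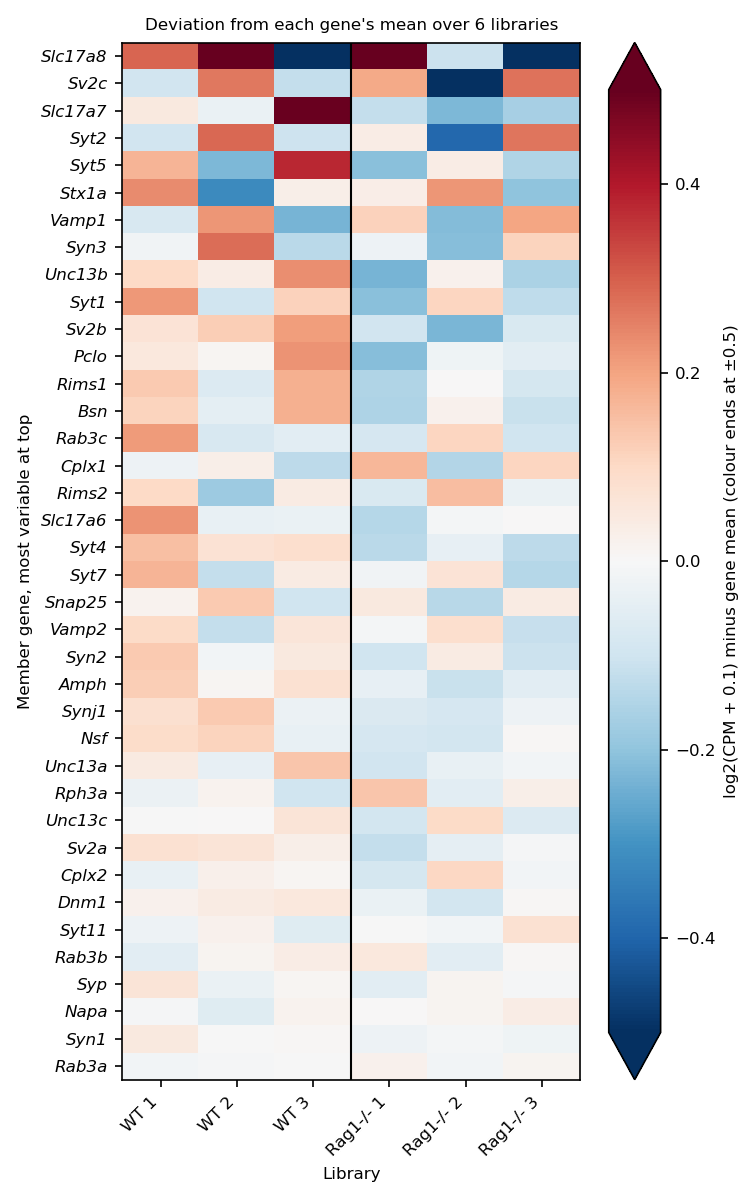
Deviation of log2(CPM + 0.1) from each gene's mean over 6 libraries, with the 38 genes in rows from the most to the least variable, libraries in columns, red above and blue below the mean, and colour ends at ±0.5. Syt2, Vamp1 and Sv2c are red in WT 2 and in the libraries labelled Rag1-/- 1 and 3, and Slc17a7 is deep red in WT 3 alone.

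Syt2 was at 319, 417 and 317 CPM in WT and at 349, 260 and 410 CPM in libraries labelled Rag1-/-. Vamp1, the vesicle SNARE of many brainstem and spinal terminals, was at 710, 876 and 639 CPM in WT and at 815, 646 and 861 CPM in libraries labelled Rag1-/-. Sv2c was at 34.5, 44.5 and 34.0 CPM in WT and at 42.2, 25.9 and 44.7 CPM in libraries labelled Rag1-/-. For all 3 genes the highest 3 libraries were WT 2 and those labelled Rag1-/- 1 and 3. The same 3 libraries were highest for Snap25, Syt11, Cplx1 and Rph3a, and for the neuron markers Nefl and Nefm. Syt1 went the other way, at 608, 488 and 568 CPM in WT and at 453, 564 and 479 CPM in libraries labelled Rag1-/-, so the same 3 libraries were its lowest. They were also the lowest for Syn2, Syp, Syt5, Syt7, Vamp2, Rims1, Rims2, Bsn and Rab3c.

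The ratio of Syt2 to Syt1 in CPM, used to compare libraries and not genes, was 0.525, 0.853 and 0.559 in WT and 0.772, 0.461 and 0.855 in the libraries labelled Rag1-/-. The ratio of Vamp1 to Vamp2 was 1.15, 1.65 and 1.06 in WT and 1.42, 1.06 and 1.61 in the libraries labelled Rag1-/-. Both ratios were highest in the same 3 libraries. The summed level of 10 Hox genes was 26.4, 43.4 and 16.4 CPM in WT and 54.4, 3.17 and 45.3 CPM in libraries labelled Rag1-/-, and it had the same 3 libraries on top and the library labelled Rag1-/- 2 lowest. Slc6a5, the glycine transporter of glycinergic neurons, was at 17.9, 40.9 and 15.4 CPM in WT and at 38.1, 8.30 and 30.5 CPM in libraries labelled Rag1-/-, with the same 3 on top. Hox levels thus moved with Syt2, Vamp1 and Sv2c over 6 libraries that share their preparation, and the part of the dissected region in this was not tested.

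Slc17a8 followed another order. It was at 5.38, 7.32 and 1.98 CPM in WT and at 10.7, 4.06 and 2.02 CPM in libraries labelled Rag1-/-. Tph2, the enzyme of serotonin synthesis in raphe neurons, was at 30.7, 29.6 and 10.002 CPM in WT and at 58.0, 22.7 and 12.3 CPM in libraries labelled Rag1-/-. Both genes were highest in the library labelled Rag1-/- 1 and lowest in WT 3 and the library labelled Rag1-/- 3. Tph2 was picked for this pairing after the values were seen.

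**Figure D4:**
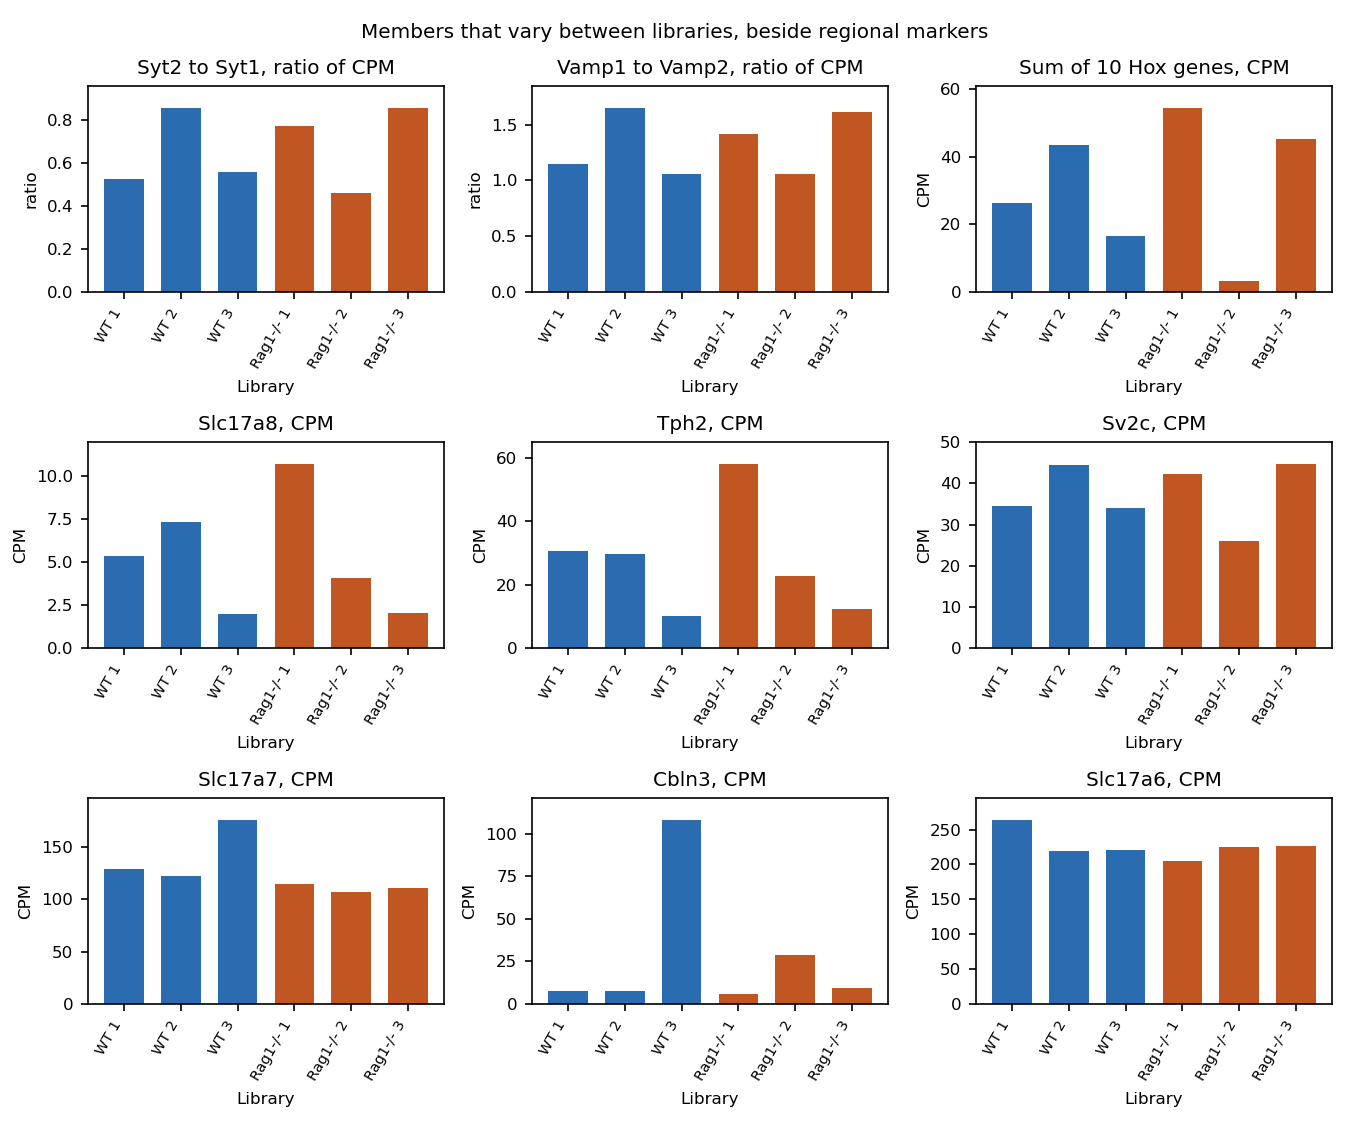
Level or ratio in each of the 6 libraries (bars from 0, in CPM or as a ratio of CPM values; WT in blue, labelled Rag1-/- in orange) for members that vary between libraries and for regional markers. The ratios Syt2 to Syt1 and Vamp1 to Vamp2 and the Hox sum are high in WT 2 and in the libraries labelled Rag1-/- 1 and 3, Slc17a8 is high where Tph2 is, and Slc17a7 and Cbln3 are highest in WT 3.

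Syt2, Vamp1, Sv2c and Syt1 were picked after their values were seen, and other members shared their highest or lowest libraries. Whether promoter sequence bears on these levels was not tested. The 250 bases before the transcription start of these genes are shown. They are RefSeq promoters on GRCm38.p6 at chr1:134646362-134646611 (plus strand), chr6:125215331-125215580 (plus strand), chr13:96132578-96132827 (minus strand) and chr10:109010976-109011225 (minus strand), each ending at the start of the deposited gene. Capitals mark the GC box, the letters GGGCGG on either strand.
Syt2: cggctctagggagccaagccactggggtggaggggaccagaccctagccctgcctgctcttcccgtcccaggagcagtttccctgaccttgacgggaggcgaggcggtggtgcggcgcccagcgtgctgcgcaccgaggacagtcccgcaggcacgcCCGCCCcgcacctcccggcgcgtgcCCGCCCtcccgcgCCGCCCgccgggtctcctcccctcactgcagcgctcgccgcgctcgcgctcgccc
Vamp1: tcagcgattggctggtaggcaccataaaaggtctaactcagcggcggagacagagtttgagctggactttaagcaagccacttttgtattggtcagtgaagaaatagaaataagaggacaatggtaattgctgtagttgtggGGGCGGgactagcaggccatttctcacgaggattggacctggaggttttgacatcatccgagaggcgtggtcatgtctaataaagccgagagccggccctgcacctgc
Sv2c: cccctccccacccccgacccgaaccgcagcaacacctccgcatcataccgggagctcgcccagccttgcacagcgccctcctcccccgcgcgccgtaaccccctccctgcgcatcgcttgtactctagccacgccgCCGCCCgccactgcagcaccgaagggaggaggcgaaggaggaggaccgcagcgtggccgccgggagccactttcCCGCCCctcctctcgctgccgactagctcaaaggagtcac
Syt1: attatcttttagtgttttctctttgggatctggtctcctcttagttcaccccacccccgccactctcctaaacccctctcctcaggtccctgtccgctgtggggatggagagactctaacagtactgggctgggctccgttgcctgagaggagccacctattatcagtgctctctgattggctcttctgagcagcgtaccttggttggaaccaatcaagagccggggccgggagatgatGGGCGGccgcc
The windows hold 3, 1, 2 and 1 GC boxes. The G and C content is 76% for Syt2, 50.4% for Vamp1, 70.8% for Sv2c and 56.4% for Syt1. A GC box was present in 24 of the 43 promoters found for 31 members (55.8%) and in 32.7% of 32851 promoters of the same length. The TATA box (TATAAA) was in 6.98% of the member promoters and in 12.4% of all. The CRE (TGACGTCA) was in 1 member promoter, of Syn1, and in 1.55% of all. These are matches of letters on both strands, and member promoters were not matched to the others for G and C content or level. Syt2 and Syt1 each have another promoter in the same set, with 2 GC boxes at Syt2 and 0 at Syt1, which is not shown.

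Beyond the panel, 76 other genes of vesicle release and retrieval were counted. Of these 75 were tested, and 0 had an adjusted p under 0.05. An unadjusted p of at most 0.05 was found for 11 (14.7%, against 11.6% of all genes tested), of which 9 were lower (background 9.29%) and 2 higher (background 2.27%) in libraries labelled Rag1-/-. With rescaling by the median of ratios, 9.09% of all genes tested met this p and 4.36% met it in the lower direction. Of the other release genes 6 then met it, 3 of them lower. The count was 5 without WT 1, 18 without WT 2, 19 without WT 3 and 4 without the library labelled Rag1-/- 1, where 8.79%, 12.1%, 11.6% and 6.63% of all genes tested met this p. The groups did not overlap for 14 genes in the lower direction (18.7% of those tested, against 14.4% of all genes tested) and for 1 in the higher, where the background was 3.98%, and the median log2 fold change was -0.07. Stxbp5l, a tomosyn that competes for syntaxin, was at 70.8, 75.7 and 72.1 CPM in WT and at 57.4, 62.0 and 63.9 CPM in libraries labelled Rag1-/-, without overlap (log2 fold change -0.26, standard error 0.05, adjusted p = 0.249 by limma-trend). In order of p, the log2 fold changes of the next 4 lower genes were -0.15 for Rab3gap1, a regulator of the RAB3 GTPases, -0.15 for Snap91, a clathrin adaptor, -0.19 for Stxbp5, the other tomosyn, and -0.11 for Syngr1, a vesicle membrane protein. The 2 higher genes were Sh3gl3 (endophilin A3), at 0.26, and Dnm2, the dynamin of all cell types, at 0.14.

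Positions are on mm10. Slc17a7 lies on chromosome 7 from 45163921 to 45176139 (plus strand), Sv2b on chromosome 7 from 75114895 to 75309262 (minus strand), Syt2 on chromosome 1 from 134646612 to 134753149 (plus strand) and Slc17a8 on chromosome 10 from 89574020 to 89621249 (minus strand). The spans of 8 members overlap that of another listed gene: Bsn, Rab3a, Sv2b, Syn1, Syn2, Syn3 and Synj1 on the opposite strand and Syt1 on the same strand. Whether counting used strand is not given in the sources used here, so reads from such overlaps cannot be assigned with certainty.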

How the data were processed

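Total RNA from snap-frozen brainstems of 3 WT and 3 Rag1-/- mice was sequenced. According to the submitters' notes and methods, the authors aligned reads to mm10 with STAR 2.5.3a and quantified genes in Partek Flow 8.0. The authors deposited values in CPM, counts of each gene scaled to the total of its library, for 18058 genes, and the lowest listed is 0.0001. Of low values, 85.1% to 86.7% were whole multiples of 1 read within 0.1 read, so counts were not recovered and no count test was run.

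Here, log2(CPM + 0.1) was computed, which understates the change of low genes, and limma-trend was fitted to the 16762 genes whose mean reached 0.1 CPM (limma 3.58.1, R 4.3.3) with Benjamini-Hochberg adjustment over all of them. A permutation test (exact, two-sided) was added for single genes; 0.1 is the smallest p it can give. The fit was tested on simulated data. At the depths estimated from low values, 3 reads equal 0.0646 to 0.0950 CPM, which covers counting error only.

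Levels per length used the longest GENCODE vM21 transcript. Promoter sequences came from RefSeq (GRCm38.p6). The rule for full values was the highest paralog of each family by length, members at an unadjusted p of 0.05 or less and members whose groups did not overlap. The members, lists and rules were chosen with earlier results of these data known. Other pseudocounts, scalings, filters, lengths and variance models were tried, as were a replicate block, a term for Xist and leaving out libraries. Libraries with the same replicate number did not deviate together (correlations 0.0926, -0.22 and -0.0183). With 3 such pairs and values centred within each group, these correlations cannot settle whether the numbers pair the animals.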

Additional observations from a re-analysis of the deposited data

How the results depend on the processing

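Of the 342 values of single members under the alternatives chosen at the outset, 18 changed sign. No value passed the threshold outside the fit with a term for Xist, which rests on 1 WT library. Of 228 with 1 library left out, 25 changed sign. Of 38 with both WT 3 and the library labelled Rag1-/- 2 left out, an alternative chosen after seeing the data, 6 did. None of the 9 members with an unadjusted p of 0.05 or less changed sign under any of these. These 9 were picked by their p in the same libraries, so their kept sign is no independent check. The cause of the changes of sign was not tested.

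With the median of ratios, which moved the median of all genes by 0.04, the members' median was -0.018, 4 members and 6 other release genes (3 lower) had an unadjusted p of 0.05 or less, and Syn1 (0.0056), Syp (0.015), Snap25 (0.0094), Vamp2 (0.017) and Sv2c (0.0094) turned higher. Without trend the counts were 4 and 6. Of all genes tested, 9.09% and 9.79% were at this p under these settings, against 11.6%. Centring on neuron markers turned Cplx2 (-0.013), Rab3a (-0.00067) and Rab3b (-0.013). With that centring 30 members were lower and the members' median was -0.075. An unadjusted p of 0.05 or less by limma-trend was found for 9 members, all lower. Of all genes tested, 9.74% then met this p and 8.33% met it in the lower direction. The term for Xist leaves WT 3 as the one WT library in its class. With it the median was -0.029, and Syn3 (0.094), Syt2 (0.073), Snap25 (0.083), Stx1a (-0.0095), Rims2 (-0.027), Cplx2 (-0.0084), Sv2c (0.10), Rab3b (-0.034), Rab3c (0.028) and Napa (-0.0025) changed sign.

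The replicate block gave 6 members and 7 other release genes with an unadjusted p of 0.05 or less and 0 called, where 8.10% of all genes tested were at this p, and not every library correlated best with its own number.

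Leaving out each library in turn gave 4 to 12 members and 4 to 19 other release genes at an unadjusted p of 0.05 or less (other genes: 5 without WT 1, 18 without WT 2, 19 without WT 3, 4 without the library labelled Rag1-/- 1), where 6.63% (without the library labelled Rag1-/- 1) to 12.1% (without WT 2) of all genes tested were at this p, and a members' median of -0.094 to -0.066 (-0.094 without the library labelled Rag1-/- 3, -0.091 without WT 3). The differences then ranged across 0 for Cplx2 (-0.048 to 0.045), Rab3b (-0.023 to 0.029), Rab3c (-0.12 to 0.042), Rims2 (-0.056 to 0.083), Slc17a8 (-0.57 to 0.61), Snap25 (-0.091 to 0.028), Stx1a (-0.11 to 0.16), Sv2c (-0.18 to 0.22), Syn3 (-0.17 to 0.034), Syt2 (-0.21 to 0.12), Syt7 (-0.14 to 0.0081), Vamp1 (-0.038 to 0.19) and Vamp2 (-0.092 to 0.025). Without both libraries, 10 members and 18 other release genes had an unadjusted p of 0.05 or less, where 11.7% of all genes tested did, and Slc17a8 (-0.41), Syt2 (0.054), Stx1a (-0.042), Rims2 (-0.015), Cplx2 (-0.043) and Sv2c (0.15) changed sign, while Rab3b was at 0.047 and Rab3c at -0.16.

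Shares within families, over the panel members alone, moved with the length used. With the shortest coding transcript and with no length they were 44.0% and 63.4% for Slc17a6, 46.2% and 50.9% for Syn1, 22.4% and 43.5% for Vamp2 (51.2% with the longest coding transcript), 82.2% and 51.8% for Unc13a, 63.6% and 62.6% for Rims2, 59.1% and 61.7% for Bsn, 95.6% and 65.6% for Cplx1, 76.7% and 81.6% for Sv2a, and 65.4% and 49.7% for Rab3a; for Syt11 it was 40.6% with the shortest.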

Other observations

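The vesicular transporters for transmitters other than glutamate were also measured. Slc32a1, which loads GABA and glycine, was at 233 ± 10.1 CPM (SD, n = 3) in WT and at 227 ± 5.84 CPM (SD, n = 3) in libraries labelled Rag1-/-. Slc18a2, which loads monoamines, was at 43.2, 45.1 and 29.3 CPM in WT and at 48.3, 38.1 and 32.2 CPM in libraries labelled Rag1-/-, with the highest level in the same library as Tph2. Slc18a3, which loads acetylcholine, was at 11.7, 15.6 and 12.9 CPM in WT and at 18.2, 11.6 and 21.3 CPM in libraries labelled Rag1-/-, with overlapping groups. Slc18a1, the monoamine transporter of endocrine cells, was at 0.349 to 0.604 CPM. None of the 4 had an unadjusted p of at most 0.05 by limma-trend.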
